A study of Mus musculus with 6 samples.

Results

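The genes described here are 10 components of the Notch pathway, measured in mouse BMSCs. These mesenchymal stem cells of the bone marrow grow attached in culture and can give rise to osteoblasts, adipocytes and chondrocytes. They were chosen by symbol: the receptors Notch1, Notch2, Notch3 and Notch4, the ligands Jag1 and Jag2, and the effectors Hes1, Hey1, Hey2 and Heyl. All 10 were among the 22984 genes of the deposited table. Of the 6 libraries, 3 came from Grx2-/- cells, in which the gene of the mitochondrial thiol oxidoreductase glutaredoxin 2 is knocked out, and 3 from Grx2+/+ cells. The labels name no age, sex, strain, treatment or type of knockout allele. They also do not tell whether replicates came from different animals, and p-values therefore cover only the spread between these libraries, which may be technical. The design text calls the cells O-BMSCs without expanding the prefix. Values are in FPKM, fragments scaled by gene length and library size, a level per length that can be set side by side between genes.

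Notch receptors sit on the surface of one cell and bind Jagged or Delta ligands carried by a neighbour. Binding exposes the receptor to an ADAM protease and then to gamma-secretase, which frees its intracellular domain to enter the nucleus, join RBPJ and a Mastermind protein, and switch on the HES and HEY transcriptional repressors. In mouse skeletal progenitors the pathway is known for restraining osteoblast differentiation, and HEY1 and HEYL for inhibiting the osteoblast factor RUNX2.

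Depth, worked back from the values, was 40797879 to 41794919 reads per library. Glrx2, the gene of Grx2, was listed at 0.00461, 0 and 0 FPKM in knockout replicates 1 to 3, against 3.57, 3.74 and 3.54 FPKM in wild type replicates 1 to 3. Of 12 stromal markers, 6 were higher in knockout, 5 were lower and 1 did not pass (limma). The collagen genes Col1a1 and Col1a2 summed to 3739 to 4375 FPKM in knockout and 6596 to 7622 FPKM in wild type, whereas the other 10 summed to 1632 to 1983 FPKM in knockout and 801 to 878 FPKM in wild type. Most of the latter sum came from Col3a1, also a collagen gene, averaging 1036 FPKM in knockout and 585 FPKM in wild type. It does not describe all 10, as Lepr, Nt5e and Eng were lower and Cxcl12 did not pass (limma). Lepr, a marker of marrow stroma, averaged 0.0351 FPKM in knockout and 3.83 FPKM in wild type. Thy1 and Ly6a went the other way, averaging 167 and 362 FPKM in knockout and 11.9 and 57.5 FPKM in wild type. Macrophage markers were present too, at 2318 to 3128 FPKM in knockout and 1360.2 to 1505 FPKM in wild type over 10 genes. Summed neutrophil markers were at 3.17 to 3.71 FPKM in knockout and 886 to 2573 FPKM in wild type. Knockout replicate 1 and wild type replicate 2 stood furthest from the other libraries of their groups. In bulk RNA, fewer cells of a type and less RNA per cell cannot be told apart.

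In knockout cells the receptors Notch2 and Notch3 and the effector Hey1 were lower, while Notch1, Jag1 and Hes1 did not pass the test. The remaining members, Notch4, Jag2, Hey2 and Heyl, averaged under 1 FPKM over the 6 libraries and were left out of the main test. Heyl nearly vanished from the knockout libraries, with 3 reads in all against 699 in wild type. Of the 6 members tested, 0 were called higher and 3 lower (limma with trend on log2(FPKM + 1), two-sided, Benjamini-Hochberg adjusted p under 0.05 over 11083 genes). At an unadjusted p under 0.05 the counts were also 0 and 3, and voom on recovered reads called 1 higher, Jag1. Among all genes tested, 67.4% were called, 42.7% higher and 24.6% lower, so the members' 50% lies below the background and is no result about the pathway. The median log2 fold change of the 6 was -0.11, beside 0.085 for all genes tested. The groups did not overlap for 8 of the 10 members, 6 of them lower in knockout and 2 higher. Over tested genes 73.1% did not overlap, 27.4% with knockout below and 45.7% with knockout above, and over genes with a mean of 0.1 to 1 FPKM 57.2% did not, 27.8% with knockout below. With no filter on low values, 0 of the 10 members were called higher and 6 lower by limma, where 39.6% of all genes were called, 23.9% higher and 15.7% lower. Voom on recovered reads with no filter also called 0 higher and 6 lower, beside 24.8% and 17.3% of all genes (42.1% in either direction).

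**Figure D1:**
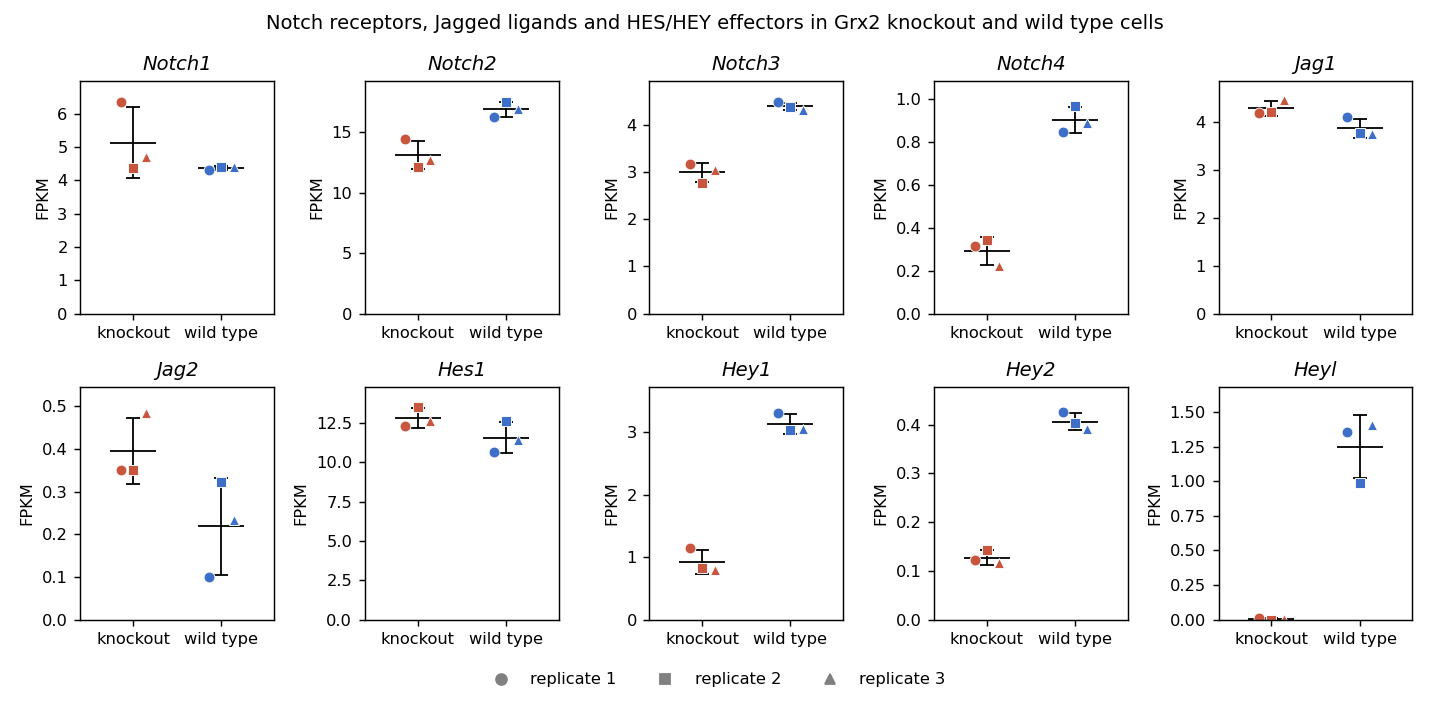
Level of each of the 10 members in FPKM (y axis, from 0) in the 3 knockout libraries (red, left) and the 3 wild type libraries (blue, right), with the mean as a horizontal line, the SD as a bar and a symbol per replicate. Notch2, Notch3, Notch4, Hey1, Hey2 and Heyl lie lower in every knockout library, while the groups overlap for Notch1 and Hes1.

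Among the receptors, Notch2 was the most abundant in both genotypes. It stood at 14.5, 12.2 and 12.7 FPKM in knockout replicates 1 to 3, against 16.3, 17.5 and 16.9 FPKM in wild type replicates 1 to 3. Each knockout library was below each wild type library, and knockout replicate 1 came closest to wild type. The mean was 13.1 ± 1.19 FPKM in knockout and 16.9 ± 0.620 FPKM in wild type (SD, n = 3 each), a log2 fold change of -0.35 ± 0.064 (SE; limma adjusted p = 0.00162). Notch2 fell in each of 18 alternative fits in which it was tested, with adjusted p from 0.000173 to 0.00919.

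Notch3, a receptor best known from vascular mural cells, was at 3.17, 2.77 and 3.05 FPKM in knockout and 4.48, 4.38 and 4.32 FPKM in wild type. The groups were well apart, with little spread in either. The means were 3.00 ± 0.205 FPKM in knockout and 4.39 ± 0.0769 FPKM in wild type, and the log2 fold change was -0.43 ± 0.056 (limma adjusted p = 0.000231). It also fell in each of 17 alternative fits. The promoter of Notch3, the receptor with the larger change of the pair called lower, is shown from RefSeq (build GRCm38.p6, chr17:32166891-32167140, minus strand, the 250 bases before the annotated start). The submitters' notes name another build, GRCm39. Capitals mark matches to CACNAG, a site bound by HES proteins, on either strand.
Notch3 promoter: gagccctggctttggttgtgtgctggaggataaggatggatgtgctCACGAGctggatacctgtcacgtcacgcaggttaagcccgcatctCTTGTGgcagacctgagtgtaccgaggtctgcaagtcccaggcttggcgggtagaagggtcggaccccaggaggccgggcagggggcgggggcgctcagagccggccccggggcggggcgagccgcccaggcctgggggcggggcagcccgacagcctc

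Notch1, the receptor known for its part in T cell development, was at 6.35, 4.36 and 4.69 FPKM in knockout and 4.31, 4.41 and 4.39 FPKM in wild type. Knockout replicates 1 and 3 were above all wild type libraries, replicate 1 by far the more, and knockout replicate 2 lay between wild type libraries. The log2 fold change was 0.18 ± 0.11, with a 95% interval of -0.074 to 0.43 (limma adjusted p = 0.179). Without knockout replicate 1 it was 0.042 (limma adjusted p = 0.505). Notch1 and Notch3 did not differ beyond their spread in wild type, at 4.37 ± 0.0535 and 4.39 ± 0.0769 FPKM, whereas in knockout the lowest Notch1 value, 4.36 FPKM, was above the highest Notch3 value, 3.17 FPKM.

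Notch4, known mainly from endothelium, was the lowest receptor. It had 0.314, 0.344 and 0.221 FPKM in knockout (87, 94 and 60 reads), against 0.846, 0.966 and 0.888 FPKM in wild type (229, 264 and 244 reads). The groups were far apart, and by reads the level in wild type was 3.07 times that in knockout (exact 95% interval 2.65 to 3.57, counting error only). With no filter the log2 fold change was -0.56 ± 0.049 (limma adjusted p = 0.000384). This scale understates the change of a gene under 1 FPKM.

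Taken over the family, the summed level of the receptors was 24.3, 19.6 and 20.7 FPKM in knockout and 25.9, 27.3 and 26.5 FPKM in wild type. All knockout sums were below the wild type sums (exact two-sided permutation p = 0.1, the smallest that 3 against 3 libraries can give; 0.11 adjusted over 11 such tests). Notch2 made up 61.0 ± 1.30% of the sum in knockout and 63.7 ± 0.715% in wild type. Notch1 took 23.7 ± 2.15% in knockout and 16.4 ± 0.247% in wild type, a gain of 7.24 percentage points. Notch3 held 14.0 ± 0.858% in knockout and 16.5 ± 0.640% in wild type, and Notch4 1.37 ± 0.350% in knockout and 3.38 ± 0.142% in wild type. The exact permutation p was 0.1 for each of the 4 shares.

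**Figure D2:**
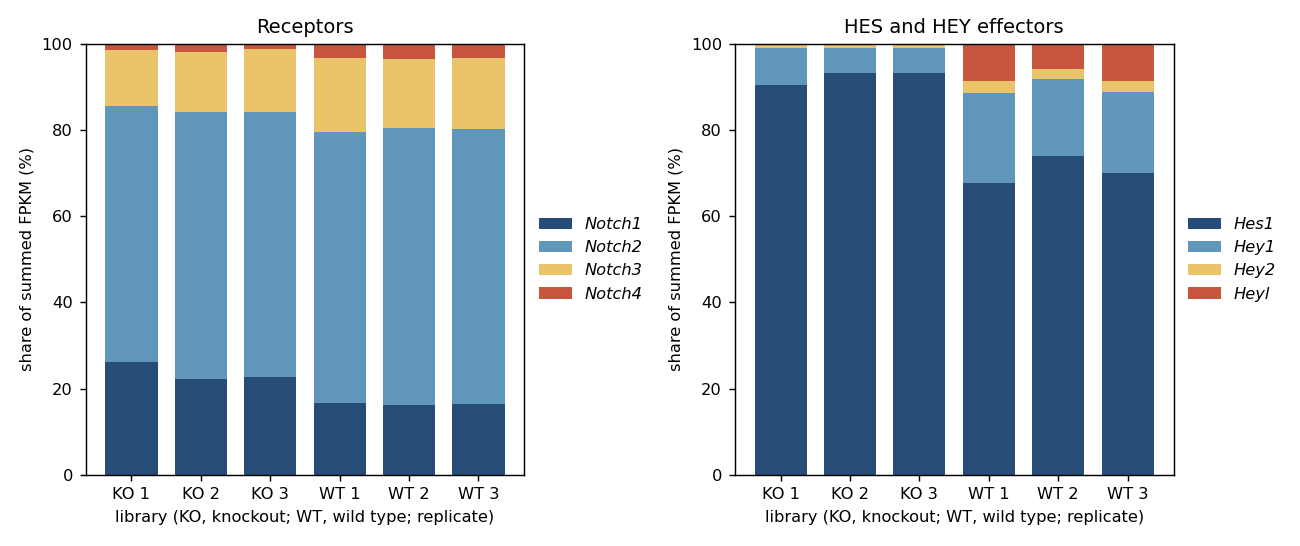
Share of each gene in the summed FPKM (%, y axis) of the receptors (left) and of the HES and HEY effectors (right) in each library, with the 3 knockout libraries left of the 3 wild type libraries. Notch1 takes 22.2 to 26.1% of the receptors in knockout and 16.2 to 16.6% in wild type, and Hes1 takes 90.6 to 93.3% of the effectors in knockout and 67.6 to 74.0% in wild type.

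Jag1, the main Jagged ligand of these cells, was at 4.19, 4.21 and 4.46 FPKM in knockout and 4.11, 3.76 and 3.75 FPKM in wild type. The groups did not overlap, yet the nearest libraries differed by little. The log2 fold change was 0.12 ± 0.054, with a 95% interval of -0.0079 to 0.24 (limma adjusted p = 0.0863). Voom on recovered reads put it past the threshold (limma adjusted p = 0.0356), the exception among 17 alternative fits, and quantile normalization gave 0.0085.

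Jag2, the second Jagged ligand, was scarce, at 0.351, 0.352 and 0.485 FPKM in knockout (76, 75 and 103 reads) and 0.0994, 0.323 and 0.233 FPKM in wild type (21, 69 and 50 reads). Every knockout library was above every wild type library, and wild type replicate 1 was the lowest of all. The ratio of reads, knockout over wild type, was 1.81 (exact 95% interval 1.46 to 2.24, counting error only). Neither fit with no filter called it: adjusted p was 0.0963 by limma on log2(FPKM + 1) and 0.0626 by voom and limma on recovered reads. On the log2 scale Jag1 exceeded Jag2 by 3.58, 3.58 and 3.201 in knockout and by 5.37, 3.54 and 4.01 in wild type. These ratios overlapped (exact two-sided permutation p = 0.3), and the mean difference of -0.85 became -0.32 without wild type replicate 1.

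Hes1, the effector most widely used as a readout of Notch, was at 12.3, 13.5 and 12.6 FPKM in knockout and 10.7, 12.6 and 11.4 FPKM in wild type. Wild type replicate 2 lay within the knockout range. The log2 fold change was 0.14 ± 0.065, with a 95% interval of -0.011 to 0.29 (limma adjusted p = 0.0892). Without wild type replicate 2 it was 0.20 and past the threshold (limma adjusted p = 0.0195), and without that library and knockout replicate 1 it was 0.23 (limma adjusted p = 0.00695). With the replicate number as a block the value 0.14 had a limma adjusted p of 0.0277, while quantile normalization gave 0.0081.

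Hey1, a repressor of the hairy-related family with a YRPW-type tail, had the largest change among the tested members. It was at 1.14, 0.827 and 0.790 FPKM in knockout (115, 82 and 78 reads), against 3.32, 3.03 and 3.05 FPKM in wild type (326, 301 and 304 reads). The highest knockout library was far below the lowest wild type library. The means were 0.920 ± 0.194 FPKM in knockout and 3.13 ± 0.161 FPKM in wild type, and the log2 fold change was -1.11 ± 0.081 (limma adjusted p = 8.11e-06). It ranked 949 of 11083 genes by absolute log2 fold change and fell in each of 17 alternative fits, from -1.06 to -1.78. The search for similar profiles covered tested genes outside the members, with predicted and RIKEN symbols left out. The mean-centred log2(FPKM + 1) profiles over the 6 libraries closest to that of Hey1 belonged to Dact1, Antxr1 and Ak4, at Euclidean distances of 0.0957, 0.101 and 0.124. Their log2 fold changes were -1.09, -1.15 and -1.14, so closeness here mostly reflects a like difference between the genotypes and does not show co-expression.

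**Figure D3:**
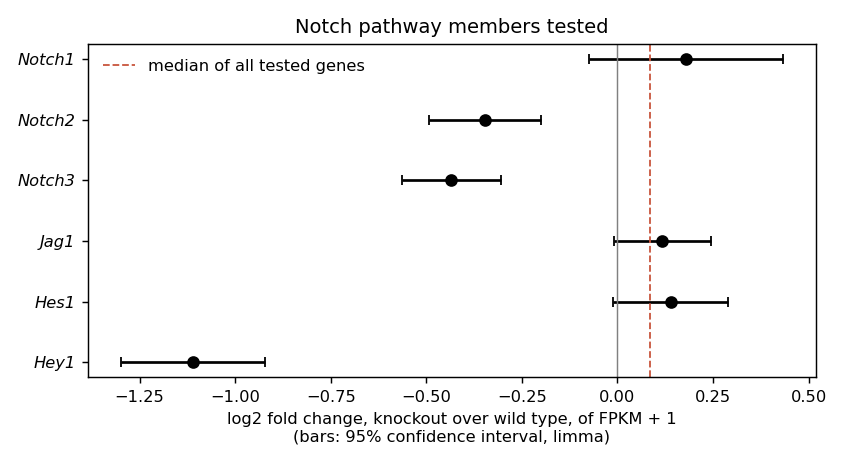
Log2 fold change of FPKM + 1, knockout over wild type (x axis), of the 6 tested members, with 95% confidence intervals from limma and a dashed line at the median of all tested genes (0.085). The intervals of Notch2, Notch3 and Hey1 lie below 0, and those of Notch1, Jag1 and Hes1 include 0.

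Hey2, known for its part in heart and vessel development, was low throughout. It had 0.123, 0.144 and 0.116 FPKM in knockout (13, 15 and 12 reads), against 0.426, 0.403 and 0.391 FPKM in wild type (44, 42 and 41 reads). The groups were far apart for so few reads, with a wild type to knockout ratio of 3.19 (exact 95% interval 2.22 to 4.67, counting error only). With no filter the log2 fold change was -0.32 ± 0.018 (limma adjusted p = 7.82e-05), and voom on recovered reads gave -1.64 ± 0.28 (limma adjusted p = 0.00112). Its promoter is shown because it alone, among the members' promoters at hand, holds the RBPJ core (RefSeq, build GRCm38.p6, chr10:30842784-30843033, minus strand, 250 bases before the annotated start). Capitals mark that match, on the opposite strand, 207 to 202 bases before the start.
Hey2 promoter: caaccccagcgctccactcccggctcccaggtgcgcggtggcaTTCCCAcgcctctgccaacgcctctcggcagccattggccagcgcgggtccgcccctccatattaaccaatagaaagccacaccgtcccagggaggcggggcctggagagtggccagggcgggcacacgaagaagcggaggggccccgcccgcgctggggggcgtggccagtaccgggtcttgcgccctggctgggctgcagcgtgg

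The promoter table held 7 of the 10 members; Hes1, Hey1 and Heyl were not matched. The RBPJ core TGGGAA, searched on both strands, was in 1 of the 7 windows, beside 21.6% of 32851 promoter windows of the same 250 bases. The HES sites CACGTG and CACNAG were in 0 and 3 of the 7, beside 6.02% and 36.7% of all windows. CACNAG matched once each in the Notch1 and Notch2 windows and at both marked places in that of Notch3.

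Heyl, a HEY relative known from vascular smooth muscle, showed the widest gap. It was listed at 0.0106, 0 and 0.00538 FPKM in knockout (2, 0 and 1 reads), against 1.36, 0.985 and 1.41 FPKM in wild type (251, 184 and 264 reads). Every wild type library held well over 100 reads and no knockout library more than 2. By reads, Heyl was 234 times as high in wild type as in knockout (exact 95% interval 79.7 to 1137, counting error only). With no filter the log2 fold change was -1.16 ± 0.077 (limma adjusted p = 0.000136), and voom on recovered reads gave an adjusted p of 8.2e-06 by limma.

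The 4 effectors together summed to 13.6, 14.5 and 13.5 FPKM in knockout and 15.8, 17.0 and 16.2 FPKM in wild type. Their make-up differed more than their sum. Hes1 made up 92.4 ± 1.56% of the sum in knockout and 70.6 ± 3.22% in wild type. Hey1 held 6.66 ± 1.53% in knockout and 19.2 ± 1.66% in wild type, Hey2 0.918 ± 0.0700% in knockout and 2.49 ± 0.183% in wild type, and Heyl 0.0392 ± 0.0390% in knockout and 7.69 ± 1.65% in wild type. No share overlapped between the genotypes (exact two-sided permutation p = 0.1 for each, the smallest possible).

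Most markers of vessel cells and of osteoblasts were lower in knockout, as Notch4, Hey2 and Heyl were. Jag2, also under 1 FPKM, was higher in every knockout library than in any wild type library. Of 14 endothelial markers, 11 were lower in every knockout library than in any wild type library, 2 were higher and 1 overlapped. Of all tested genes 73.1% did not overlap, 27.4% with knockout below. The 14 endothelial markers summed to 6.28 to 6.92 FPKM in knockout and 29.5 to 35.8 FPKM in wild type. Tie1, Cldn5 and Sox17 were at 0 in all knockout libraries. By contrast, Tek averaged 0.609 FPKM in knockout and 0.265 FPKM in wild type, and Vwf 1.96 and 1.71 FPKM. Erg was the marker that overlapped. Of 12 mural markers, 9 were lower in every knockout library and 3 overlapped, with sums of 914 to 1417 FPKM in knockout and 2495 to 2709 FPKM in wild type and none at 0. Most of the mural sums came from Acta2, averaging 630 FPKM in knockout and 1558 FPKM in wild type, and Tagln, 474 and 901 FPKM. The other markers differed widely. Mcam averaged 1.09 FPKM in knockout and 13.6 FPKM in wild type, and Pdgfrb 45.0 and 59.2 FPKM, while Myh11, Kcnj8 and Cspg4 overlapped. Of 10 osteoblast markers, 7 were lower in every knockout library and 3 overlapped, with sums of 2627 to 3031 FPKM in knockout and 5021 to 5392 FPKM in wild type. Most of these sums came from Col1a1, also counted among the stromal markers, and Spp1. Col1a1 averaged 2164 FPKM in knockout and 3757 FPKM in wild type, and Spp1 616 and 1164 FPKM. The sums therefore say little of the other osteoblast markers, some of which differed far more. Ibsp averaged 0.487 FPKM in knockout and 107 FPKM in wild type, Alpl 3.66 and 106 FPKM, and Runx2 5.02 and 12.6 FPKM. Bglap, Dmp1 and Phex, all averaging under 1 FPKM, were the 3 that overlapped. The part of these cell types in the values of Notch3, Notch4, Hey1, Hey2 and Heyl was not tested.

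**Figure D4:**
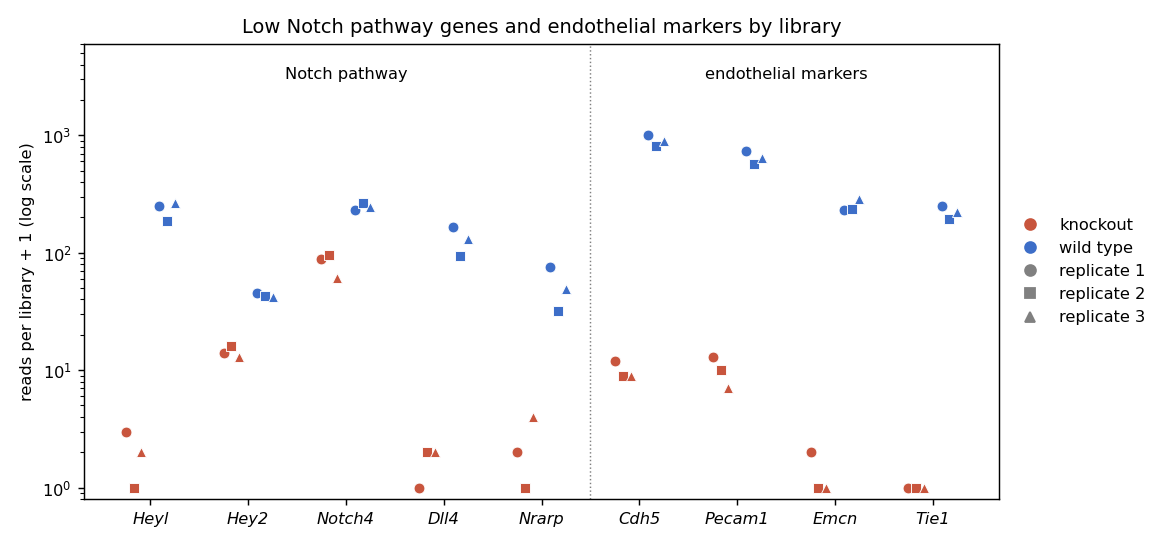
Reads per library plus 1 (log scale, y axis) of 5 Notch pathway genes (left of the dotted line) and 4 endothelial markers (right), in knockout (red) and wild type (blue) libraries, with a symbol per replicate. Heyl, Dll4 and Nrarp have at most 3 reads in any knockout library, and Cdh5, Pecam1, Emcn and Tie1 are likewise far below their wild type reads. The 4 markers shown are among the 11 of 14 that were lower in every knockout library. The 5 Notch pathway genes were likewise picked among those lower in every knockout library. Low pathway genes that were higher in every knockout library, such as Jag2, Neurl1b, Maml2 and Mfng, are not shown. The endothelial markers Tek and Vwf, also higher, are not shown either.

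The other genes of the pathway were described with a list of 52, of which 51 were in the table and 40 were tested. Of these, 14 were higher in knockout, 10 were lower and 16 did not pass (limma), 60% called beside 67.4% of all genes. The median log2 fold change was 0.035. With median-of-ratios scaling 10 were higher and 17 lower, and with quantile normalization 10 were higher and 18 lower. Those scalings moved the median of all tested genes by -0.079 and -0.11 on the log2 scale, and called 51.4% and 46.4% of all changed genes higher, beside 63.5% without scaling.

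Delta-type ligands differed sharply between members. Dll4, the Delta ligand of endothelium, was listed at 0, 0.00704 and 0.00707 FPKM in knockout (0, 1 and 1 reads), against 1.17, 0.654 and 0.902 FPKM in wild type (165, 93 and 129 reads). By reads it was 194 times as high in wild type as in knockout (exact 95% interval 53.4 to 1610.35, counting error only), and the part of the endothelial markers in it was not tested. Dll1, another activating ligand, had 6, 9 and 7 reads in knockout and 29, 45 and 29 reads in wild type, a wild type to knockout ratio of 4.70 (exact 95% interval 2.95 to 7.83). Dll3, a divergent ligand that does not activate Notch in neighbours, had 0 or 1 read in each library. Dlk1, a Delta-like protein without the receptor-binding motif of the classical ligands and known as an inhibitor of adipocyte formation, was at 33.2, 37.5 and 36.0 FPKM in knockout and 1.09, 4.45 and 1.92 FPKM in wild type. It rose by a log2 fold change of 3.51 ± 0.29 (limma adjusted p = 1.82e-05), in 18 of 18 alternative fits.

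Among the 9 proteases that process the receptors, 4 rose, 1 fell and 4 did not pass, 55.6% called beside 67.4% of all genes; with either scaling 3 rose and 2 fell. Adam17, an ectodomain sheddase, was at 36.2, 33.7 and 35.1 FPKM in knockout and 18.5, 20.1 and 19.4 FPKM in wild type (log2 fold change 0.82 ± 0.044, limma adjusted p = 1.41e-06). Adam10, the other ADAM protease listed, averaged 42.1 FPKM in knockout and 41.5 FPKM in wild type and did not pass (limma adjusted p = 0.755). The gamma-secretase genes Psen2 and Psenen rose by 0.64 ± 0.062 and 0.48 ± 0.046 on the log2 scale. Furin, which cleaves the receptors during their maturation, was at 24.5, 25.1 and 25.1 FPKM in knockout and 38.2, 37.5 and 38.1 FPKM in wild type (log2 fold change -0.59 ± 0.032). The calls of Adam17, Psen2, Psenen and Furin held in each of 18 alternative fits.

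Rbpj, the DNA-binding partner of the receptors' intracellular domain, was at 6.89, 6.79 and 7.03 FPKM in knockout and 7.36, 6.93 and 7.33 FPKM in wild type. The groups overlapped, and the log2 fold change of -0.054 ± 0.045 did not pass (limma adjusted p = 0.316), although median-of-ratios scaling (-0.13, limma adjusted p = 0.0405) and quantile normalization (-0.17, limma adjusted p = 0.0178) called it lower. Of the 12 tested nuclear genes, Rbpj included, 3 rose, 5 fell and 4 did not pass, 66.7% called beside 67.4% of all genes. With either scaling 1 rose and 6 fell.

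Of 10 tested regulators of turnover, endocytosis and feedback, 2 rose, 2 fell and 6 did not pass, 40% called beside 67.4% of all genes. Scaling left 2 called higher and put 6 (median-of-ratios) or 7 (quantile) lower. Dtx4, a Deltex ubiquitin ligase, was at 7.67, 7.96 and 7.70 FPKM in knockout and 3.39, 3.83 and 3.69 FPKM in wild type (log2 fold change 0.92 ± 0.053). Nrarp, a feedback inhibitor that Notch switches on, was named after its values were seen. It had 1, 0 and 3 reads in knockout and 75, 31 and 48 reads in wild type, a wild type to knockout ratio of 38.7 (exact 95% interval 14.8 to 144, counting error only). Neurl1b, a regulator also averaging under 1 FPKM, had 249, 252 and 290 reads in knockout and 53, 28 and 43 in wild type. Maml2 and Mfng of the wider list, under 1 FPKM too, were likewise higher in every knockout library than in any wild type library. Among the other HES-related factors, Bhlhe40, a repressor that also acts in the circadian clock, was at 15.8, 19.1 and 19.0 FPKM in knockout and 28.8, 29.8 and 30.1 FPKM in wild type (log2 fold change -0.69 ± 0.069).

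**Figure D5:**
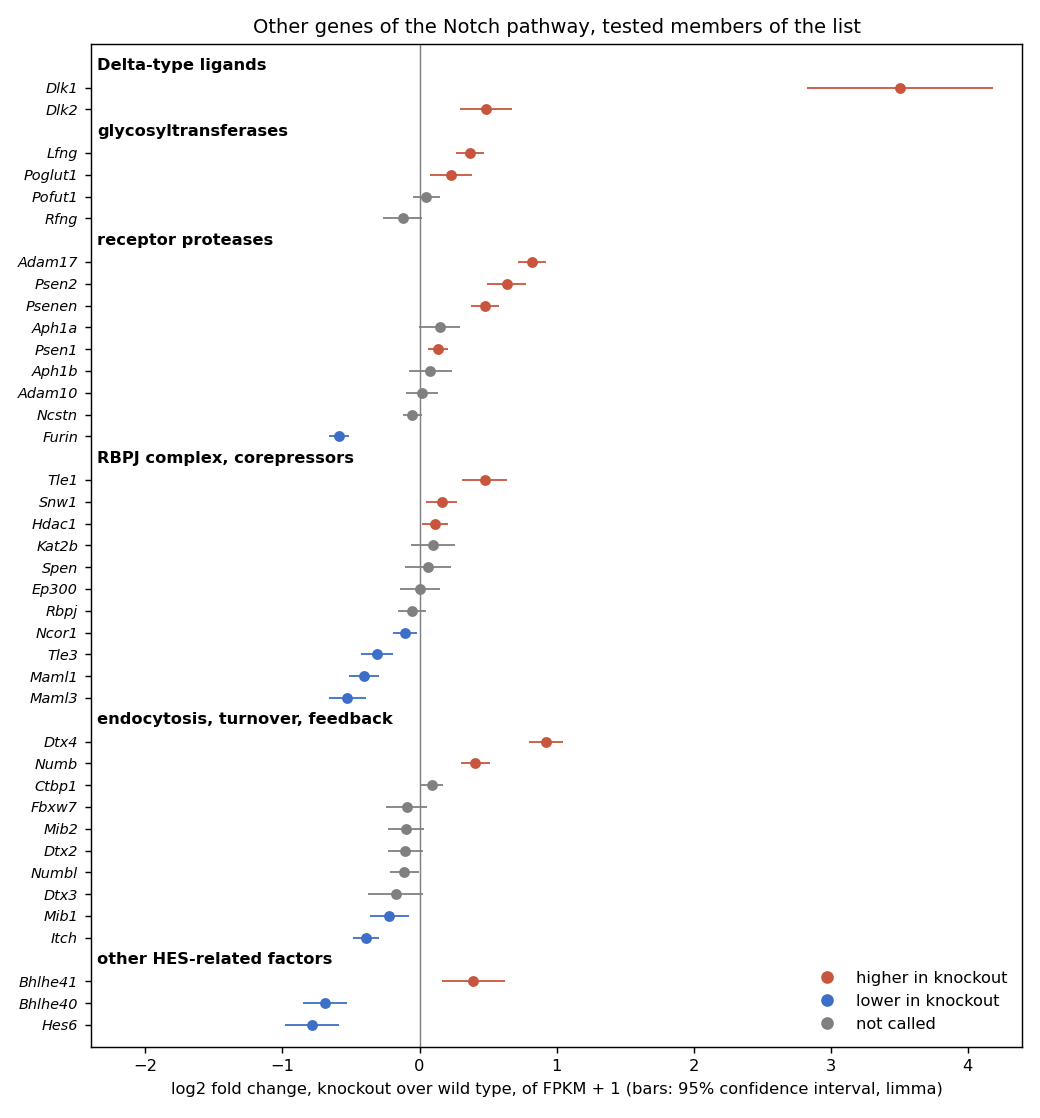
Log2 fold change of FPKM + 1, knockout over wild type (x axis), with 95% confidence intervals from limma, of 39 of the 40 tested genes of the wider Notch list grouped by role; red is called higher in knockout, blue lower, grey not called. Dlk1, at 3.51, lies far to the right of the rest, which run from -0.78 to 0.92.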

How the data were processed

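The authors deposited FPKM values for 6 RNA-seq libraries of TRIzol-extracted RNA. The build was GRCm39 and the tools included HTSeq, HISAT2 and R 3.2.0, per the submitters' processing notes. Nothing read here states their other versions, the annotation, filters or whether strand was used, and reads of a gene and of one overlapping it or antisense to it are therefore not separable. Reads were recovered from the FPKM steps for 22982 of 22984 genes (99.99%, within 1e-06 reads). FPKM was analysed as log2(FPKM + 1) where the mean FPKM reached 1 (limma 3.58.1, R 4.3.3, lmFit, eBayes with trend), with all 6 libraries and no covariate, Benjamini-Hochberg adjusted over all tested genes. Recovered reads were used for voom and exact binomial intervals only. The fit was tested on simulated data. Chi-square values per gene between replicates, 3.74 to 21.6, showed no library deposited more than once.

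Members and lists were chosen with earlier results of these data known. Named beside the members are Glrx2, Rbpj, Dll1, Dll3, Dll4, Dlk1, the 8 genes of the wider list with the smallest p (1 of them is not reported here), and the 3 genes closest in profile to Hey1. Nrarp, Neurl1b, Maml2, Mfng, Adam10, Hes6 and Maml3 fall outside this rule and were chosen after their values were seen. The same holds for the marker genes given by name (Lepr, Col1a1, Col1a2, Thy1, Ly6a, Spp1, Tie1, Cldn5, Sox17, Tek, Vwf, Erg, Cdh5, Pecam1 and Emcn). It also holds for Col3a1, Nt5e, Eng, Cxcl12, Lyz2, Adgre1, Fcgr1, Acta2, Tagln, Mcam, Pdgfrb, Myh11, Kcnj8 and Cspg4. Ibsp, Alpl, Runx2, Bglap, Dmp1 and Phex were named in the same way. Shares were compared by exact permutation. Hes5 and protein sequences were not analysed here. Figures were drawn with matplotlib 3.10.9.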

Additional observations from a re-analysis of the deposited data

How the results depend on the processing

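The calls of Notch2, Notch3 and Hey1 held in each alternative fit in which they were tested, while no call of Notch1 was made in any; Jag1 and Hes1 changed call as given with their values. Voom on recovered reads, the replicate block and the fit without knockout replicate 1 and wild type replicate 2 each called 1 member higher, and leaving out 1 library gave 0 to 1. With no filter 6 members were called lower, also by voom with no filter, which was added after seeing the data; with a mean FPKM of at least 5, which left 2 members to test, 1 was, as it was with a 2-fold minimum. On the wider list, median-of-ratios scaling called 17 lower and quantile normalization 18. With no fold minimum, limma gave 11 lower at an unadjusted p under 0.05. A 2-fold minimum, taken on FPKM + 1, left 1 higher and 0 lower (limma), and that scale understates the change of low genes. By mean FPKM, Dtx4 was 2.14 times as high in knockout as in wild type. Hes6 and Maml3 were 2.02 and 2.11 times as high in wild type as in knockout. The 2-fold minimum kept 719 higher and 392 lower among all genes. Taken from reads and not per length, the difference in share was -1.36 percentage points for Notch4, 31.2 for Hes1 and -16.5 for Heyl, since longer genes then count for more.

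Replicate numbers are shared between the genotypes. Deviations of same-numbered libraries correlated at 0.11, 0.12 and 0.020. Knockout replicates 1 and 2 correlated best with their own number, and knockout replicate 3 did not. Correlations so few and weak cannot tell whether the numbers mark pairs. The replicate block gave 4771 genes higher and 2791 lower, beside 4737 and 2728. Depth limits what can be said of Dll3, with 0 or 1 read in each library. The same holds for Hey2, Jag2, Dll1, Mfng and Nrarp, with at most 103 reads in any library.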
